A study of Homo sapiens with 16 samples.

Results

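The accessible regions of human chromosome 19 were followed through loss of the fusion oncoprotein PAX3-FOXO1. All regions that the deposited tables place on chromosome 19 were taken, 2354 of 56949 in experiment 6086 and 1683 of 40844 in experiment 6211, together 4037 of 97793. They were split into the short arm, 19p (regions ending below position 24600000, 1080 in 6086 and 765 in 6211), and the long arm, 19q (regions starting above 27700000, 1274 and 918). No region lay between these bounds, and every region of the chromosome passed the filter on low counts. The chromosome was selected on the share of its regions that changed with treatment, which was small, so the shares of changed regions below are a description and were not tested.

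ATAC-seq was run on Rh30, an alveolar rhabdomyosarcoma cell line, in which the fusion carries an FKBP tag. Cells received the vehicle DMSO or 500 nM dTAG47, a compound that leads FKBP-tagged proteins to degradation, for 0.5, 1 or 2 h in experiment 6211 and for 2, 4 or 24 h in experiment 6086. Each group had 2 libraries, 16 in all, named A and B here after the table headers. The cells of every group carry the tagged fusion, and no untagged cells were analysed here, so effects of the compound itself cannot be told apart from loss of the fusion. The labels give no duration for DMSO, do not say whether the tagged cells are 1 clone, and do not say whether replicates were separate cultures. The p-values therefore set a change against only the differences between libraries of a group, and those differences may be technical.

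In ATAC-seq a transposase cuts open DNA, so the reads in a region measure how accessible it is. PAX3-FOXO1 joins the DNA-binding domains of PAX3 to the activation domain of FOXO1 and drives muscle-lineage enhancers in rhabdomyosarcoma. Chromosome 19 is rich in genes and GC bases, and holds large clusters of KRAB zinc finger genes, whose products bind DNA and recruit repressors, many of them to transposable elements.

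The name of the chromosome as zinc finger rich was checked against RefSeq gene names on GRCh38.p14, used for names and chromosomes only. Of 517 protein-coding genes with numbered ZNF symbols, 250 (48.4%) were on chromosome 19, where they made up 17.2% of its 1451 protein-coding genes. Regions were not assigned to genes, since the positions in the deposited tables were taken as hg19, the human build in the submitters' processing notes, and no annotation of that build was used here. A set of 7 spans of the chromosome, 12 Mb in all, stand below for its zinc finger clusters (9-10, 12-13, 20-24, 37-38, 44-45, 52-54 and 57-59 Mb). Their bounds are approximate, come from general knowledge, and also hold other genes.

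Chromosome 19 was densely covered with accessible regions. Experiment 6086 had 40.1 regions per Mb there, the highest density of the 22 autosomes, against 19.6 on the other 21 together. Its regions were wider, at a median of 373 against 318 bp, and lay closer together, with a median of 3.10 against 4.77 kb to the nearest neighbour. Their median level in DMSO was 13.2 CPM, read counts scaled to the reads in regions of each library, adjusted by the TMM scaling factor of the fit. This was the highest of the autosomes, against 10.4 CPM on the others. With 4.13% of all regions the chromosome held 5.04% of the DMSO reads. Chromosomes 17 and 22 came close in density, with 39.6 and 37.5 regions per Mb. On chromosome 17 the nearest neighbour lay at 2.94 kb, and 5.64% of the regions held 7.07% of the DMSO reads. In 6211, where nearly every region is 401 bp wide, the density of chromosome 19 was 28.7 against 14.1 per Mb, beside 28.6 on chromosome 17. Its median level there was 19.7 against 18.5 CPM, and 3 autosomes had a higher one. Density was slightly higher on 19p (45 per Mb in 6086) than on 19q (40.6 per Mb).

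Library totals over all regions were 18038062 to 31308682 reads in 6086 and 9934147 to 18275976 reads in 6211. The spread between replicates on chromosome 19 was close to or slightly below that elsewhere. The median absolute log2 difference between replicates, averaged over groups, was 0.104 in 6086, against 0.111 on the other autosomes. In 6211 it was 0.130 against 0.133. The median biological coefficient of variation of its regions was 3.52% against 3.55% in 6086 and 5.91% against 5.98% in 6211. The fit draws these coefficients toward values shared by all regions, so they differ little between chromosomes. The median standard error of a log2 change at 24 h was 0.094 against 0.103.

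None of the 5 regions with the highest DMSO level per kb in 6086 passed the test at any time. The highest of them in total, chr19:50143279-50144529, stood at 165 and 154 CPM in DMSO, 150 and 151 at 2 h, 149 and 155 at 4 h, then 150 and 148 at 24 h. DMSO A was the highest library and the 4 h libraries overlapped DMSO. At 24 h its log2 change was -0.10 ± 0.04 (SE, n = 2 per group; adjusted p = 0.094). The region chr19:45393564-45394763 had 152 and 148 CPM in DMSO and 147 and 147 at 24 h. At chr19:54640685-54641548 the values were 118 and 110 in DMSO and 116 and 118 at 24 h. The remaining pair, chr19:12847608-12848143 and chr19:49999115-49999798, had 24 h log2 changes of -0.02 and -0.05. The widest region of the chromosome, chr19:54693030-54695540 with 2511 bp, went from 209 and 191 CPM to 200 and 185 at 24 h, and the groups overlapped.

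At 0.5 h no region of chromosome 19 passed the test in edgeR (Benjamini-Hochberg adjusted p under 0.05), against a background of 0.00735% of all regions in the table, and DESeq2 likewise called 0. At an unadjusted p under 0.05 there were 83 of 1683, 4.93%, against 2593 of 38410, 6.75%, on the other autosomes. At 1 h, 7 regions were lower and 4 higher, 0.654% of the 1683. The background over all regions was 2.69%, with 2.47% lower and 0.220% higher, and the other autosomes had 2.80% called. At 2 h in the same experiment 33 were lower and 25 higher, 3.45%. The background was 6.89%, with 4.92% lower and 1.97% higher, and the other autosomes had 7.07% called. The lower regions made up 1.96% of the chromosome, the smallest share of the autosomes, while 12 autosomes had a smaller share of higher regions than its 1.49%. Chromosome 12 adds many gains to the others at this time, and without it they had 6.77% called and 1.75% higher.

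In experiment 6086, 53 regions were lower and 21 higher at 2 h, 3.14% of 2354, beside a background of 5.22% (4.25% lower, 0.978% higher). At 4 h, 78 were lower and 21 higher, 4.21%, beside a background of 7.19% (5.44% lower, 1.75% higher). By 24 h the counts had reached 329 lower and 190 higher, 22%, beside a background of 32.2% (18.6% lower, 13.6% higher) and 32.8% on the other autosomes. Chromosome 13 had the next smallest share at each time, 3.31%, 5.52% and 28.1% in turn. The 24 h libraries against the 2 h libraries gave 345 lower and 169 higher regions, 21.8%, beside a background of 30.4% (17.6% lower, 12.8% higher). The 3 comparisons with DMSO share their DMSO libraries.

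**Figure D1:**
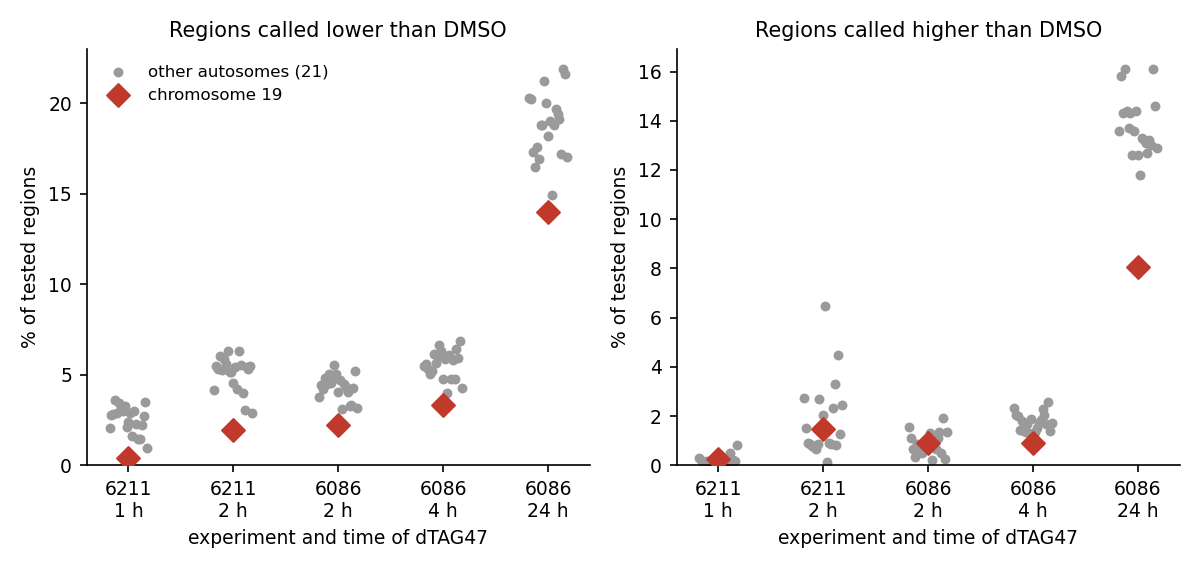
Percent of tested regions called lower (left) or higher (right) than DMSO, by experiment and time; each grey point is 1 of the 21 other autosomes and the red diamond is chromosome 19. Chromosome 19 has the smallest share of lower regions in all 5 comparisons, 14% at 24 h, and the smallest share of higher regions at 4 and 24 h, 0.892% and 8.07%, but not in the 3 earlier comparisons.

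The counts at the early times depended on single libraries. In 6211 the 1 h count of 11 became 0 without 1 h library B, 3 without DMSO A, 33 without 1 h A and 66 without DMSO B. Its balance also turned, from 7 lower and 4 higher to 12 and 21 without 1 h A and to 14 and 52 without DMSO B. The 2 h count of 58 became 21 without 2 h B, 27 without DMSO A and 90 without DMSO B, where gains again outnumbered losses (38 lower, 52 higher). The 2 h count of 74 in 6086 became 26 without 2 h A, 44 without DMSO A and 45 without 2 h B. The 4 h count of 99 fell to 59 without 4 h B. With DESeq2 the counts were 2 lower and 0 higher at 1 h, 19 and 3 at 2 h in 6211, 23 and 2 at 2 h in 6086, 49 and 7 at 4 h, and 217 and 95 at 24 h. The authors' deposited tables gave the same counts for these 5 comparisons. The smallest share among autosomes was kept under all 14 settings at 24 h, but under 9 of 15 at 2 h in 6086, where at most 1 autosome lay below. These settings refit the same libraries on which the chromosome was chosen, so they are no separate evidence of a small share.

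The spread of changes was narrower too. It is tied to the share of changed regions on which the chromosome was chosen, and is likewise a description that was not tested. At 24 h the median absolute log2 change was 0.107 on chromosome 19 against 0.160 on the other autosomes, and the central 90% of changes ran from -0.56 to 0.35 against -0.69 to 0.49. Changes of at least 2-fold were called in 29 lower and 8 higher regions of the chromosome, beside a background of 1.95% and 0.436% of all regions. Among called regions the sizes were closer, with medians of -0.43 against -0.48 for losses and 0.37 against 0.42 for gains. Of the 24 h calls on chromosome 19, 63.4% were losses, against 57.8% elsewhere. At 4 h it was 78.8% against 75.6%. Earlier the order was the other way: 63.6% against 92.0% at 1 h, 56.9% against 71.3% at 2 h in 6211, and 71.6% against 81.3% at 2 h in 6086.

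The shares were also taken within classes of level and width. All regions of a table were sorted into 5 equal classes by mean log2 CPM, which sets the counts behind each test. At 24 h the chromosome 19 shares were 18.8, 27.9, 22.3, 26.3 and 17.0% from the lowest to the highest class, each below that of the other autosomes in the same class (31.2, 34.2, 36.3, 34 and 28.5%). With the other autosomes weighted to the level classes of chromosome 19 their share was 32.4%, and weighted to its width classes 32.8%. At 2 h the level-weighted shares were 5.41% in 6086 and 7.06% in 6211, beside 3.14% and 3.45% on chromosome 19.

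**Figure D2:**
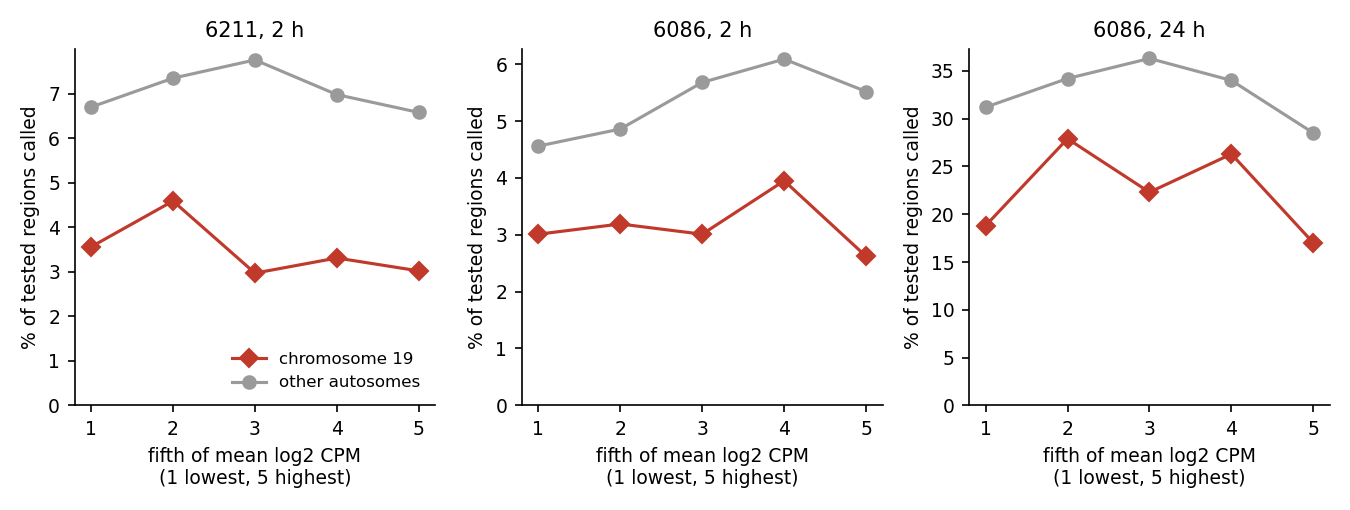
Percent of tested regions called in either direction, by class of mean log2 CPM from lowest (1) to highest (5), at 2 h in 6211, 2 h in 6086 and 24 h in 6086; red diamonds are chromosome 19 and grey circles the 21 other autosomes together. The red line lies below the grey line in every class of the 3 panels, and at 24 h it reaches at most 27.9%, in class 2.

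The chromosome as a whole kept its share of the reads in 6086, between 4.972% and 5.067% in the 8 libraries. In 6211 its share was 4.286% and 4.370% in DMSO, 4.273% and 4.411% at 0.5 h, 4.462% and 4.500% at 1 h, and 4.452% and 4.399% at 2 h. The 1 h and 2 h libraries lay above both DMSO libraries, while those of 0.5 h lay on either side. The 1 h mean was 4.48% ± 0.03 against 4.33% ± 0.06 in DMSO (SD, n = 2 each; exact permutation test, two-sided p = 0.33, the smallest that 2 against 2 allows, 0.999 after adjustment over 6 comparisons). The median log2 change over its regions was 0.060 at 1 h and 0.041 at 2 h in 6211, and between -0.014 and 0.010 in each comparison of 6086. The other autosomes ranged from -0.047 to 0.058 at 1 h and from -0.052 to 0.064 at 2 h in 6211. Chromosomes 22, 17 and 16 had nearly the same median at 1 h (0.058, 0.056 and 0.052), and chromosomes 17, 20 and 22 lay above chromosome 19 at 2 h (0.064, 0.063 and 0.054). At 4 h in 6086 the median of -0.014 lay below those of all 21 other autosomes, the lowest of which was -0.005. The 4 h libraries stood at -0.028 and 0.003. The DMSO libraries of 6211 also differed on chromosome 19, at -0.019 and 0.019 about their mean. In the first 21 other autosomes lay above it and in the second 0. The higher 2 h median was seen in 6211 and not in 6086, and the difference between the experiments was not tested. Scaling on chromosome 19 alone brings these 6211 medians to 0.001, and the calls at 1 h then became 16 lower and 1 higher, 94.1% losses instead of 63.6%. At 2 h in 6211 it gave 44 lower and 16 higher, 73.3% losses instead of 56.9%, while library size alone gave 30 lower and 32 higher, 48.4% losses. The direction of the balance in 6211 thus changed with the library left out at 1 and 2 h, and with the scaling at 2 h only.

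**Figure D3:**
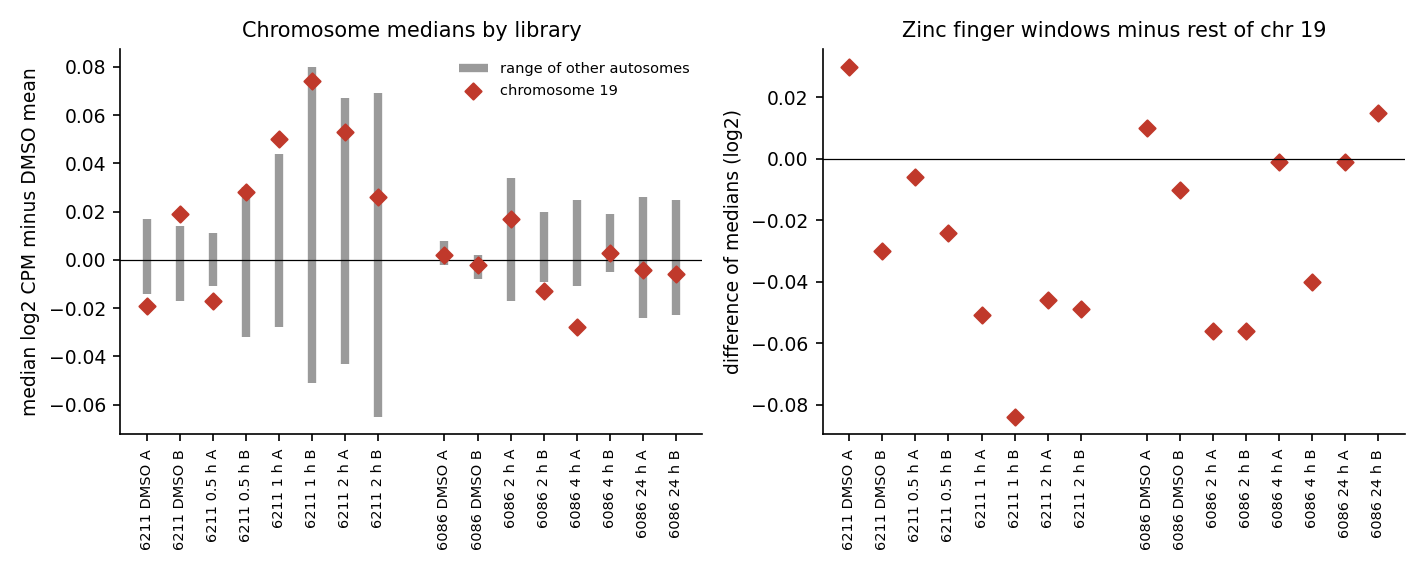
Left, the median over chromosome 19 regions of log2 CPM minus the mean of the 2 DMSO libraries of the experiment, per library (red diamonds), with the range of the medians of the 21 other autosomes (grey bars). Right, the median of the 7 zinc finger spans minus that of the rest of chromosome 19 per library, which lies between -0.084 and -0.046 at 1 and 2 h in both experiments and between -0.030 and 0.030 in DMSO.

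The zinc finger spans held fewer regions per Mb than the rest of the chromosome. In 6086 they held 335 regions, 27.9 per Mb against 43.2 per Mb in the rest, with a median DMSO level of 15.3 against 12.8 CPM and 6.13 against 2.89 kb to the nearest region. Their regions were also wider there, 436 against 365 bp, and the spans at 9-10 and 52-54 Mb had lower medians than the rest, 7.37 and 9.72 CPM. Density was uneven among the spans, from 9.2 per Mb at 20-24 Mb to 65.0 per Mb at 12-13 Mb, above the rest. At 9-10, 12-13 and 52-54 Mb the median distance to the nearest region was shorter than in the rest, at 0.367, 2.40 and 0.217 kb. In 6211, where width is nearly constant, the levels were 19.8 and 19.7 CPM. At 24 h, 30 of the 335 were lower and 14 higher, 13.1%, against 299 lower and 176 higher of 2019 in the rest, 23.5%. At 4 h the shares were 2.99% and 4.41%, and at 2 h 1.79% and 3.37%. In 6211, 3 of 258 were lower and 0 higher at 2 h, 1.16% against 3.86%, and at 1 h 0 of 258 were called against 11 of 1425. With each span widened by 1 Mb on both sides the 24 h shares were 16.1% and 25.6%. Over 13 other settings at 24 h the spans ranged from 5.37% to 13.3% and the rest from 14.6% to 24.2%, so the ranges did not meet.

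Single spans differed, on few regions each. The spans at 9-10 and 20-24 Mb had the smallest shares at 24 h, 1 of 22 higher in the first and 2 lower and 1 higher of 37 in the second. The span at 44-45 Mb stood apart, with 9 lower and 0 higher of 39, 23.1%, near the share of the rest. At 57-59 Mb there were 7 lower and 4 higher of 77, and at 52-54 Mb 5 lower and 2 higher of 67. The regions of 20-24 Mb were the most accessible of the spans in 6086, at a median of 28.7 CPM.

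**Figure D4:**
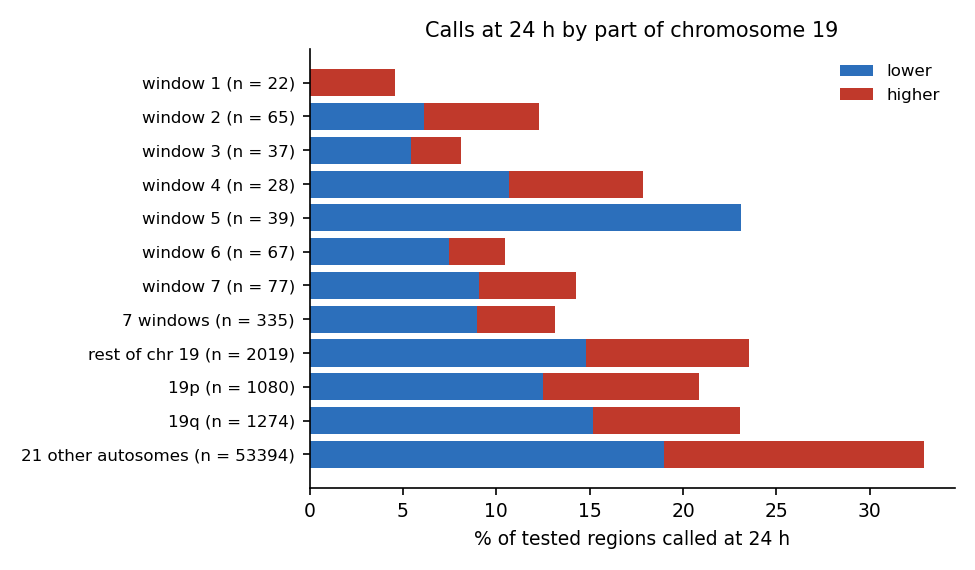
Percent of tested regions called lower (blue) and higher (red) at 24 h in experiment 6086, stacked, for the 7 zinc finger spans in order along the chromosome (windows 1 to 7), all spans together, the rest of chromosome 19, its arms and the 21 other autosomes; n is the number of regions. Window 5 holds losses only, 23.1%, and each bar of chromosome 19 is shorter than the 32.8% of the other autosomes.

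Few of these regions were called, yet as a group they sat slightly lower relative to the rest of the chromosome at 1 and 2 h. In 6211 the spans kept near DMSO while the rest stood higher. The median log2 CPM minus the DMSO mean was 0.006 and 0.004 in the spans at 1 h, against 0.057 and 0.088 in the rest. At 2 h it was 0.015 and -0.015 against 0.061 and 0.033 in 6211, and -0.032 and -0.061 against 0.025 and -0.005 in 6086. In 6086 the median of the spans minus that of the rest was 0.010 and -0.010 on the log2 scale in the DMSO libraries, -0.056 and -0.056 at 2 h, -0.001 and -0.040 at 4 h, and -0.001 and 0.015 at 24 h. Both 2 h libraries lay below both DMSO libraries, and those of 4 and 24 h overlapped DMSO. In 6211 the values were 0.030 and -0.030 in DMSO, -0.006 and -0.024 at 0.5 h, -0.051 and -0.084 at 1 h, and -0.046 and -0.049 at 2 h. The 1 h and 2 h libraries again lay below both DMSO libraries. The exact permutation test gave a two-sided p of 0.33 for each of these 3 comparisons, the smallest possible with 2 against 2, and 0.666 after adjustment over 6. The size was near 0.05, against a gap of 0.060 between the DMSO libraries of 6211. All 7 single spans had a median change below that of the rest at 1 h and at 2 h in both experiments, 5 of 7 at 4 h and 4 of 7 at 24 h. At 0.5 h, where the libraries overlapped DMSO, 6 of 7 were below the rest, and the times of an experiment share their DMSO libraries. The spans differ from the rest in level, width and density as given above, and the part these play in the shift was not tested. With the widened spans the medians at 2 h were -0.020 against 0.008 in 6086 and 0.026 against 0.049 in 6211.

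The arms differed little in their counts, and the difference was not tested. At 24 h, 135 regions of 19p were lower and 90 higher, 20.8%, and 194 of 19q were lower and 100 higher, 23.1%. At 4 h the shares were 3.15% on 19p and 5.10% on 19q, at 2 h 2.69% and 3.53% in 6086 and 3.14% and 3.70% in 6211, and at 1 h 0.654% on both. From 2 h to 24 h the order was the other way, 22.3% on 19p and 21.4% on 19q.

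Within the arms, changes were unevenly placed at 24 h, when the background over all regions was 32.2% called, 18.6% lower and 13.6% higher. Of the 2 Mb windows with at least 20 regions, the lowest share was at 58-60 Mb, next to the end of 19q, with 2 lower and 2 higher of 50 regions. From 6 to 12 Mb 10 were lower and 10 higher of 207, 9.66%. The largest share of losses lay at 30-34 Mb on 19q, where 40 of 133 were lower (30.1%) and 11 higher, 38.3% called. The same stretch had 11 lower and 0 higher at 2 h, 14 and 1 at 4 h, and, in 6211, 4 and 0 of 81 at 1 h and 6 and 1 at 2 h. Its lower shares were 8.27% and 10.5% at 2 and 4 h in 6086, beside backgrounds of 4.25% and 5.44%. In 6211 they were 4.94% and 7.41% at 1 and 2 h, beside 2.47% and 4.92%. The stretch of 30-34 Mb joins 2 neighbouring windows that were seen to be high. Its 24 h losses ranged from 29 to 40 over the other settings. At 38-40 Mb 23 were higher (20.4%) and 20 lower of 113, 38.1% called, the largest share of gains among these windows. These gains fell to 15 without DMSO A, 12 without 24 h B and 11 in DESeq2, each time fewer than the losses (18, 19 and 13).

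The largest losses and gains below were chosen among called regions with both treated libraries on 1 side of both DMSO libraries. Their separation from DMSO at the time of choice was thus set by the rule. The largest loss of the chromosome at 24 h was at chr19:35779250-35779544 on 19q. It stood at 8.85 and 7.78 CPM in DMSO, 3.07 and 4.43 at 2 h, 2.69 and 2.84 at 4 h, and 1.64 and 1.30 at 24 h. Every treated library lay below both DMSO libraries, and the 24 h pair below all others. The log2 changes were -1.14, -1.57 and -2.48 ± 0.17 (SE, n = 2 per group; edgeR adjusted p = 4.8e-14 at 24 h). This region had no single partner in 6211.

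Losses began at different times. Accessibility at chr19:11440770-11441127 was 13.6 and 11.4 CPM in DMSO, 5.85 and 5.74 at 2 h, 6.46 and 5.48 at 4 h, and 4.37 and 5.89 at 24 h, so that most of the fall was present at 2 h. Its log2 changes were -1.09, -1.06 and -1.27 ± 0.12 (adjusted p = 3.9e-10 at 24 h), and the comparison of 24 h with 2 h did not pass the test (log2 -0.17, adjusted p = 0.40). At chr19:38761345-38761623 the fall went on, from 10.8 and 10.9 CPM to 6.06 and 6.75, 5.55 and 4.96, and then 2.60 and 3.04 at 24 h. The groups did not overlap at any time, and the log2 change reached -1.94 ± 0.13 (adjusted p = 3.4e-14). A region that lost accessibility late, chr19:50700882-50701289, had 10.9 and 10.9 CPM in DMSO, 12.1 and 10.6 at 2 h, 10.6 and 10.1 at 4 h, and 3.85 and 4.47 at 24 h. Here the 2 h libraries lay on both sides of DMSO and the 24 h libraries far below all others, with a log2 change of -1.39 ± 0.12 (adjusted p = 1.4e-11). A second late loss, chr19:16999556-16999741, went from 4.93 and 5.28 CPM to 2.30 and 2.47 at 24 h, with 5.77 and 6.04 at 2 h.

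One region rose before it fell. At chr19:47803299-47803648 the values were 7.17 and 6.84 CPM in DMSO, 9.67 and 9.29 at 2 h, 7.37 and 8.03 at 4 h, and 3.39 and 3.68 at 24 h. The 2 h pair was the highest and the 24 h pair the lowest of the 8 libraries. The log2 change was 0.44 (adjusted p = 0.014) at 2 h and -0.98 (adjusted p = 2.5e-07) at 24 h. Its partner in 6211 had 0.28 at 2 h, which did not pass the test (adjusted p = 0.27).

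Strong regions were among the losses. The region chr19:49157661-49158407 stood at 83.2 and 81.5 CPM in DMSO, 51.0 and 52.9 at 2 h, 44 and 47.4 at 4 h, and 39.0 and 38.2 at 24 h. Each later group lay wholly below the one before, and the log2 change was -1.09 ± 0.05 at 24 h (adjusted p = 2.3e-17). The stretch from 30 to 34 Mb held 2 of the 10 largest losses. Of these, chr19:31714822-31715521 went from 25.0 and 23.8 CPM to 9.04 and 9.19 at 24 h, and chr19:32051371-32051973 from 31.1 and 27.4 CPM to 10.6 and 11.6. Their log2 changes were -1.42 and -1.39. In the same stretch chr19:31140203-31140333 was lowest at 2 h, with 3.75 and 4.65 CPM in DMSO, 1.74 and 1.98 at 2 h and 2.76 and 2.72 at 24 h. Its log2 change was -1.20 at 2 h and -0.64 at 24 h, both past the test.

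Other losses of this size were spread over the chromosome. On 19p, chr19:3683710-3684413 fell from 25.7 and 23.1 CPM to 9.83 and 10.2 at 24 h. On 19q, chr19:47407718-47408023 fell from 9.41 and 10.1 CPM to 3.91 and 3.93. Within the 57-59 Mb zinc finger span chr19:57599576-57599805 fell from 8.68 and 6.96 CPM to 3.03 and 2.63, and just past the 44-45 Mb span chr19:45139180-45139363 fell from 7.95 and 8.06 CPM to 3.58 and 3.14. All 10 were still called under each of 13 other settings.

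Gains were smaller and mostly late. The largest at 24 h, chr19:28163755-28164169, had 3.86 and 3.83 CPM in DMSO, 4.23 and 4.73 at 2 h, 5.90 and 4.72 at 4 h, and 10.6 and 10.2 at 24 h. All treated libraries lay above DMSO, but the change passed the test only at 24 h, at 1.43 ± 0.13 (log2, adjusted p = 4.5e-11). Near it, chr19:28231331-28231697 rose from 4.48 and 5.16 CPM to 10.3 and 11.1, a log2 change of 1.14. The surrounding stretch is sparse, with 8 regions between 28 and 29 Mb, and was singled out after its values were seen. Of these 8, 5 were higher and 0 lower at 24 h, beside a background of 13.6% higher and 18.6% lower, and 5 were higher under every other setting tried.

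At chr19:18554519-18555144 accessibility was 11.6 and 10.1 CPM in DMSO, 13.6 and 12.1 at 2 h, 14.9 and 13.4 at 4 h, and 23.4 and 25.9 at 24 h. The log2 change was 1.20 ± 0.09 (adjusted p = 1.2e-12) at 24 h and 0.40 at 4 h, both past the test. The region chr19:8093819-8094309 was the only one of the 10 largest gains to pass at 2, 4 and 24 h, with log2 changes of 0.41, 0.63 and 1.10. Its CPM was 8.85 and 8.33 in DMSO, 11.6 and 11.1 at 2 h, 12.3 and 14.1 at 4 h and 17.9 and 18.8 at 24 h. At chr19:47242531-47242796 the level rose from 2.52 and 2.78 CPM to 6.41 and 7.22 at 24 h. The 5 others had log2 changes of 0.98 to 1.03 at 24 h, and all 10 kept their call under each of 13 other settings.

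Some gains at 2 h were gone by 24 h. At chr19:38511091-38511299 the CPM was 5.10 and 4.89 in DMSO, 7.43 and 8.15 at 2 h, 6.68 and 6.07 at 4 h, and 4.41 and 5.26 at 24 h. The 2 h pair was the highest and the 24 h pair overlapped DMSO. The log2 change was 0.64 ± 0.13 at 2 h (adjusted p = 0.0011) and -0.04 at 24 h. The region chr19:49707520-49707714 had 0.61 at 2 h and 0.10 at 24 h, but lost its 2 h call in DESeq2 and without either DMSO B or 2 h A. A gain that lasted was at chr19:56622517-56622819, with log2 changes of 0.45, 0.80 and 0.78, of which the first did not hold in 6 of the other settings.

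**Figure D5:**
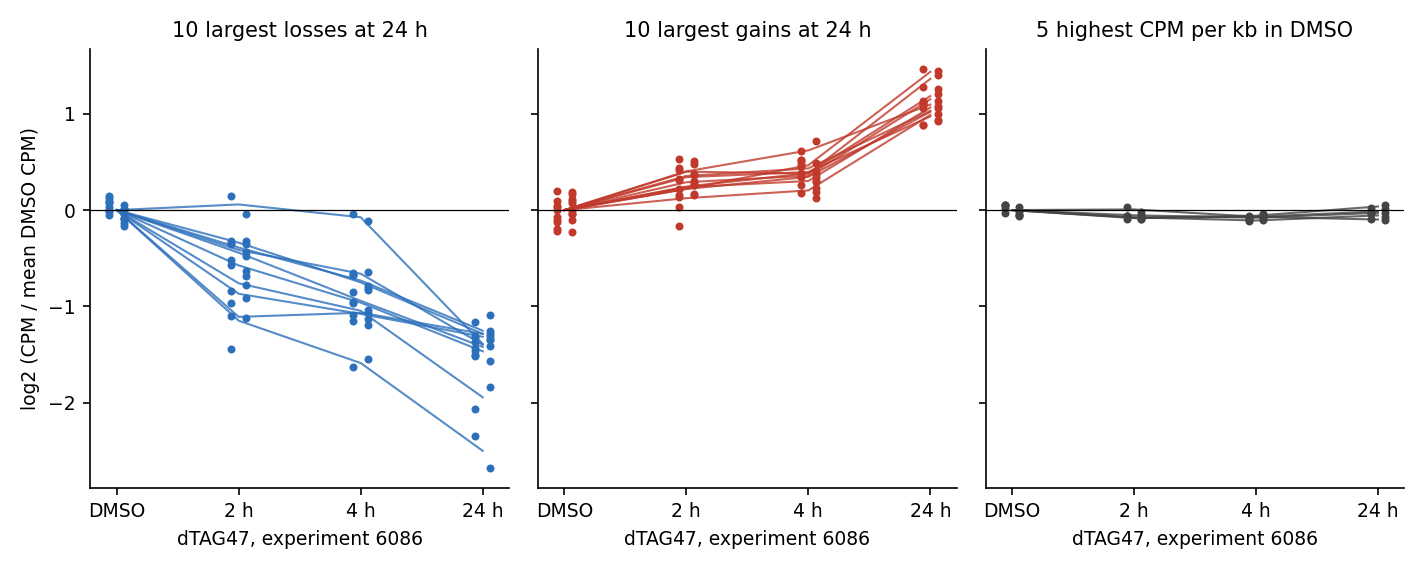
Log2 of CPM over the mean DMSO CPM in experiment 6086 for 3 sets of chromosome 19 regions: the 10 largest losses at 24 h (blue), the 10 largest gains at 24 h (red) and the 5 regions with the highest DMSO CPM per kb (dark grey). Points are single libraries and lines join the group means; 1 loss stays near 0 until 4 h, most gains appear between 4 and 24 h, and the dark lines stay near 0.

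The 2 h changes could be compared between experiments with separate DMSO libraries. By 50% reciprocal overlap 1207 regions of chromosome 19 had a single partner. Of these, 33 were lower at 2 h in 6086 and 25 in 6211, and 21 in both, 63.6% and 84.0% of each list. All 33 had a log2 change below 0 in 6211, where their median was -0.23 at 0.5 h (30 of 33 below 0, 0 called), -0.29 at 1 h (33 of 33, 5 called) and -0.48 at 2 h (33 of 33, 21 called). Over 2, 4 and 24 h of experiment 6086 the median log2 changes of the 25 lower in 6211 were -0.47, -0.63 and -0.77. On the other autosomes 69.4% and 74.5% of the lists were in both.

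Gains were not shared to the same extent. The lists of higher regions held 12 in 6086 and 21 in 6211, with 0 in both, though 11 of the 12 and 19 of the 21 had a change above 0 in the other experiment. On the other autosomes 85 were in both, 25.6% and 15.5% of the lists. Over 2, 4 and 24 h of experiment 6086 the 547 gains of 6211 on the other autosomes had medians of 0.17, 0.12 and 0.01. Those of the 21 gains on chromosome 19 were 0.13, 0.06 and -0.16. Such a region, chr19:55884060-55884460, stood at 9.54 and 9.04 CPM in DMSO and 15.1 and 13.7 at 2 h in 6211, a log2 change of 0.63 (adjusted p = 0.0059). Its partner in 6086 had 0.25 at 2 h, which did not pass, and -0.69 at 24 h (adjusted p = 2.4e-05). In 6211 its call was lost in DESeq2 and without 2 h A.

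Of the losses called at 2 h in both experiments, the 5 with the largest mean change are given with their 6211 values, which add the first hour. The partner of the early loss on 19p, chr19:11440765-11441165, had 19.7 and 18 CPM in DMSO, 12.7 and 14 at 0.5 h, 11.9 and 11.0 at 1 h and 10.8 and 10.1 at 2 h. Both 0.5 h libraries were already below DMSO, but the change passed the test only from 1 h (log2 -0.50, -0.72 and -0.85; adjusted p = 0.23, 0.0016 and 0.00016). Its 1 h call was lost without 1 h B, at an adjusted p of 0.063. The partner of the strong region on 19q, chr19:49157830-49158230, had 87.5 and 95.2 CPM in DMSO, 73.4 and 72.5 at 0.5 h, 72.8 and 72.1 at 1 h and 53.8 and 54.9 at 2 h. It too passed from 1 h, with log2 changes of -0.32, -0.33 and -0.75. At chr19:31153117-31153517 the values were 25.0 and 19.8 CPM in DMSO, 14.3 and 16.5 at 0.5 h, 14.8 and 16.1 at 1 h, and 14.3 and 13.5 at 2 h. All treated libraries lay below DMSO from 0.5 h, and the log2 change at 2 h was -0.69 (adjusted p = 0.0017). The remaining pair among the 5, chr19:38761292-38761692 and chr19:54048455-54048855, passed at 2 h only, at log2 -0.78 and -0.77.

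The early calls of 6211 were the least stable of the named regions. All 8 named at 1 h lost their call in at least 1 other setting, as did 2 of the 4 largest losses and 3 of the 4 largest gains at 2 h. Among the 1 h gains, chr19:36370622-36371022 had 10.9 and 10.8 CPM in DMSO, 12.3 and 14 at 0.5 h, 15.4 and 16.4 at 1 h, and 12.4 and 11.9 at 2 h, with a log2 change of 0.55 at 1 h (adjusted p = 0.019). The 1 h pair was the highest of the 8 libraries. Its call did not hold in DESeq2 (adjusted p = 0.20) or without 1 h B (adjusted p = 0.24), among others. In 6086 the 4 largest losses at 2 h and at 4 h kept their calls throughout, while 3 of the 4 largest gains at 2 h and 2 of the 4 at 4 h lost theirs in at least 1 setting. Of these, chr19:19006624-19006780 lost its 2 h call in 6 settings and chr19:13264465-13264606 its 4 h call in 5.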

How the data were processed

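The count tables deposited by the authors give unnormalised read counts in each region for 8 libraries per experiment; the deposited comparison tables hold log2 fold changes and p-values, per the file headers, and served only for side-by-side counts. Tools in the submitters' processing notes are Bowtie2, Trimmomatic (0.32), deepTools, DiffBind, DESeq2 and Genrich (0.6.1), and builds are hg19 and dm3. Read shifting, duplicate handling and peak merging are not given in the sources used here.

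Whole tables were fitted with edgeR 4.0.16 in R 4.3.3 (TMM, filterByExpr, quasi-likelihood test, all 8 libraries, 4 residual degrees of freedom), with p-values adjusted over all regions and calls at 0.05. The fit was also run on simulated counts with the same spread in every region, a simpler setting than these data, and nothing here rests on that run. CPM uses reads in regions, adjusted by the TMM factor of each library. TMM would hide a uniform change. Experiments were tested separately, and matched with bedtools 2.31.1. Alternatives were DESeq2 1.42.0, other scalings and filters, a replicate block, only the groups compared, and each library left out.

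Named regions had a mean count of at least 30, a call, and both treated libraries on 1 side of both DMSO libraries: the 10 lowest and 10 highest changes at 24 h, and 4 and 4 for the other comparisons. Added to these were the 5 highest per kb in DMSO, the widest region, and the 5 with the largest change called at 2 h in both experiments. The chromosome, spans and lists were chosen with earlier results of these data known. No sequences are shown, since no genome of the tables' build was used here.

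Header letters A and B could not be tied to the labels' replicate numbers. Deviations of libraries with the same letter correlated between -0.14 and 0.21, so the letters were not taken as pairs.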

Additional observations from a re-analysis of the deposited data

How the results depend on the processing

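The balance of losses and gains in 6211 turned under some alternatives: at 1 h to 14 lower and 52 higher without DMSO B and 12 and 21 without 1 h A, and at 2 h to 38 and 52 without DMSO B and 30 and 32 by library size only. No region named for its change reversed direction in that comparison. The choice largely set this, since it required both treated libraries on 1 side of both DMSO libraries. With DESeq2 the calls on chromosome 19 numbered 2 at 1 h, 22 at 2 h in 6211, 25 at 2 h in 6086, 56 at 4 h, 312 at 24 h and 288 for 24 h against 2 h. When the fit held just the groups compared they were 5 at 1 h and 35 at 2 h in 6211, and with scaling on chromosome 19 alone 17 at 1 h. Leaving out 1 library at a time gave 0 to 5 calls at 0.5 h, 0 to 66 at 1 h, 21 to 90 at 2 h in 6211, 26 to 108 at 2 h in 6086 and 59 to 115 at 4 h, where a lone library is assumed to vary like the other groups. At 24 h the range was 400 to 472. With the letters as a replicate block the calls were 18 at 1 h, 71 at 2 h in 6211, 62 at 2 h in 6086, 94 at 4 h and 502 at 24 h. Crossing the letters of the 2 h libraries, added after the data were seen, gave 92 at 2 h in 6086. Scaling moved the share of losses at 2 h in 6086 from 71.6% to 60.3% (chromosome 19 alone) and 58.0% (library size only).

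The median log2 change of the chromosome in 6211 was 0.001 at 1 h and 0.001 at 2 h when scaled on itself. At 24 h its sign changed: it was 0.003 with DESeq2, 0.010 scaled on itself, 0.025 by library size, 0.003 with a loess offset and 0.002 with median-ratio factors, beside -0.002, and with 1 library left out -0.010 to -0.003. At 4 h it was -0.031 to -0.000 with 1 library left out. Widened spans had 16.8% called for 24 h against 2 h. The read share at 24 h differed by 0.034 percentage points over matched regions only. At 80% reciprocal overlap 8 matched regions were lower in both experiments. The cause of these shifts was not tested. Depth was 9934147 to 18275976 reads in 6211 and 18038062 to 31308682 in 6086, and what it limits was not tested.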
